A study of Homo sapiens with 4 samples.

Results

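Cells handle faulty protein folding and amino acid shortage through a shared set of stress genes, and 37 of them were followed here in cells transfected with siRNA against the long noncoding RNA LINC01186, which the study calls SALIS. The members were taken by gene symbol and make up 37 of the 44591 genes listed in each library. They were taken in 2 groups, 17 amino acid response genes that answer to the transcription factor ATF4 and 20 genes of protein folding and quality control in the endoplasmic reticulum (ER). The deposited data comprise 4 RNA-seq libraries of cells labelled HepG2, an established human liver cancer line, with 2 transfected with the control siRNA siNC and 2 labelled siLINC01186, numbered as replicate 1 and replicate 2 in each group. All libraries shared the same handling, with transfection at about 70% confluency, 6 h without serum and then 24 h in medium with 10% serum, followed by poly(A) enrichment and paired-end Illumina sequencing. By the study's account the 2 repeats shared 1 control siRNA but used different oligos against the RNA, which its tables name siSALIS_01 and siSALIS_02, and the labels do not state which oligo each library received. The study describes the repeats as biological, and the labels do not say that they came from separate cultures, so each p-value measures only the spread between these samples.

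Unfolded proteins in the ER are sensed by IRE1 (gene ERN1), PERK (EIF2AK3) and ATF6. IRE1 splices the mRNA of the transcription factor XBP1, activated ATF6 enters the nucleus, and both raise chaperone and degradation genes. PERK phosphorylates the translation factor eIF2, as does the amino acid sensor GCN2, and this lowers general translation while ATF4 protein is made, which turns on genes for amino acid uptake and synthesis and the factor CHOP (DDIT3). RNA levels report the transcripts of these genes and not the splicing of XBP1, the phosphorylation of the sensors or the ATF4 protein.

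Total counts ranged from 14968958 to 17297245 per library, and 36 of the 37 members were among the 23942 genes tested, those that reached 5 counts in total over the libraries. FGF21, a secreted hormone induced by ATF4, had 2 counts in siNC replicate 1 and 0 in the other libraries and was not tested. LINC01186 itself gave 15 counts in siNC and 12 in siLINC01186 of replicate 1, and 14 counts in each library of replicate 2. The exact 95% interval of the rate ratio, siLINC01186 over siNC, ran from 0.401 to 2.15 in replicate 1 and from 0.401 to 2.06 in replicate 2, so a fall of the target was not detectable at this depth, and every direction below is between libraries as labelled. Such intervals cover counting error only. By qPCR the study reports knockdown of this RNA in HepG2 cells, without stating whether those were the sequenced samples. The hepatocyte markers ALB, AFP, APOA1, APOB, TF, SERPINA1, FGB and TTR summed to 3 and 7 counts in the replicate 1 libraries, siNC first, and to 115 and 86 in the replicate 2 libraries, with 6 and 4 of the 8 genes at 0 in replicate 1. No single marker exceeded 27 counts, so the transcripts that define hepatocytes were at or near 0 in cells labelled HepG2. The markers of other cell types PTPRC, CD3E, PECAM1, VWF, COL1A1, DCN, KRT5 and SFTPC summed to between 429 and 914 counts per library, of which COL1A1 gave 333 to 790, and were also higher in replicate 2. In bulk RNA, fewer cells of a type and less RNA per cell cannot be told apart. The part of these differences in the results that follow was not tested.

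The 2 groups carry different promoter sequences, shown here because the motifs are those through which ER stress and ATF4 are known to act. Promoter windows from 250 bases before to 50 after the transcription start were taken from RefSeq (GRCh38.p14) and were found for 35 of the 37 members, 16 amino acid response and 19 ER genes, with none for SHMT2 and PDIA3. The ER stress element, CCAAT followed after 9 bases by CCACG and searched on both strands, stood in 7 of the 19 ER genes (HSPA5, HSP90B1, PDIA6, CALR, CANX, XBP1 and CRELD2) and in 0 of the 16 amino acid response genes. It stood in 25 of all 27305 genes with a window, or 0.0916%. The second form, ATTGG, 1 base and CCACG, stood in SDF2L1, HERPUD1 and HYOU1 and in 0.0696% of all genes. The short core CCACG, contained in both forms, stood in 17 ER and 10 amino acid response genes and in 42.1% of all genes, so on its own it separates little. The XBP1 motif TGACGTGG, which overlaps the second form in HYOU1, stood in that member alone and in 0.927% of all genes. The core of the ATF4 composite element, TGATGCAA, stood in CHAC1, FGF21 and the ER gene HERPUD1 and in 1.08% of all genes. With the sixth base free, as TGATGNAA, ASNS and SLC3A2 were added and the share of all genes was 4.46%. Capitals mark the motif in these windows of 30 bases, given 5′ to 3′ in the direction of the gene, where a motif on the opposite strand appears as its reverse complement. HSPA5 lies at chr9:125241385-125241414 (minus strand), HSP90B1 at chr12:103930211-103930240 (plus strand), CANX at chr5:179698773-179698802 (plus strand), HYOU1 at chr11:119057264-119057293 (minus strand), HERPUD1 at chr16:56931955-56931984 (plus strand), CHAC1 at chr15:40953251-40953280 (plus strand) and ASNS at chr7:97872458-97872487 (minus strand), all in GRCh38.p14.
HSPA5, ER stress element: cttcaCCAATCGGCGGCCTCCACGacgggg
HSP90B1, ER stress element: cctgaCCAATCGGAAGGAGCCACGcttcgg
CANX, ER stress element: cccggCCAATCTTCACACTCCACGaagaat
HYOU1, second form: ggcctgggaCGTGGTCCAATgagtacgcgc
HERPUD1, ATF4 core: gacgcggcgggTTGCATCAgcccgtgccca
CHAC1, ATF4 core: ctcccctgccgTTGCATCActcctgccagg
ASNS, ATF4 core with the sixth base free: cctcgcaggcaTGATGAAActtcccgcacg
A match is a description of these letters, and no member's response is read from it. DDIT3, TRIB3 and ATF4, described next, held none of the ATF4 letters searched, and bases outside these windows were not searched. HYOU1 and CANX, which stood lower in 1 library each, both held an ER stress element in 1 of its forms. So did HSPA5, HSP90B1, PDIA6, CALR, XBP1, CRELD2, SDF2L1 and HERPUD1, which had log2 fold changes, siLINC01186 over siNC, between -0.06 and 0.18. EDEM1 and SEL1L, each lowest in siLINC01186 replicate 2 as CANX was, held neither form.

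Per transcript length, the tested members ranged from 4.70 to 1081 TPM. Levels between genes are compared only as deposited TPM, a count divided by gene length and scaled to 1000000 per library, averaged over the 4 libraries. CALR, the ER chaperone calreticulin that binds sugar chains, led with a mean of 1081 TPM, followed by HSPA5 (BiP), the main ER Hsp70 chaperone, at 670 TPM and HSP90B1, the ER Hsp90 chaperone, at 579 TPM. SLC7A5, the light chain of a large neutral amino acid transporter, stood highest among the amino acid response genes at 490 TPM, and its heavy chain SLC3A2 reached 269 TPM. CANX, the membrane-bound partner of calreticulin, had 326 TPM and the disulfide isomerases PDIA3 and PDIA4 had 310 and 306 TPM, all between the 2 transporter chains, while the isomerase PDIA6 at 254 TPM lay just below SLC3A2. Of the sensors, ERN1 was the lowest tested member at 4.70 TPM, EIF2AK3 had 7.62 TPM and ATF6 had 15.4 TPM. Also low were the stress enzyme CHAC1, which breaks down glutathione, at 6.98 TPM, the HSPA5 cofactor DNAJB9 at 7.21 TPM, ATF5 at 13.1 TPM and SEL1L at 15.0 TPM. ATF4 mRNA itself was abundant at 219 TPM, whereas its target DDIT3 had 19.2 TPM. TPM serves here for levels between genes and not for differences between libraries, since on that scale the median gene of at least 5 CPM shifted by -0.23 on the log2 scale between the treatments in replicate 1, against 0.01 on the scale used below.

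**Figure D1:**
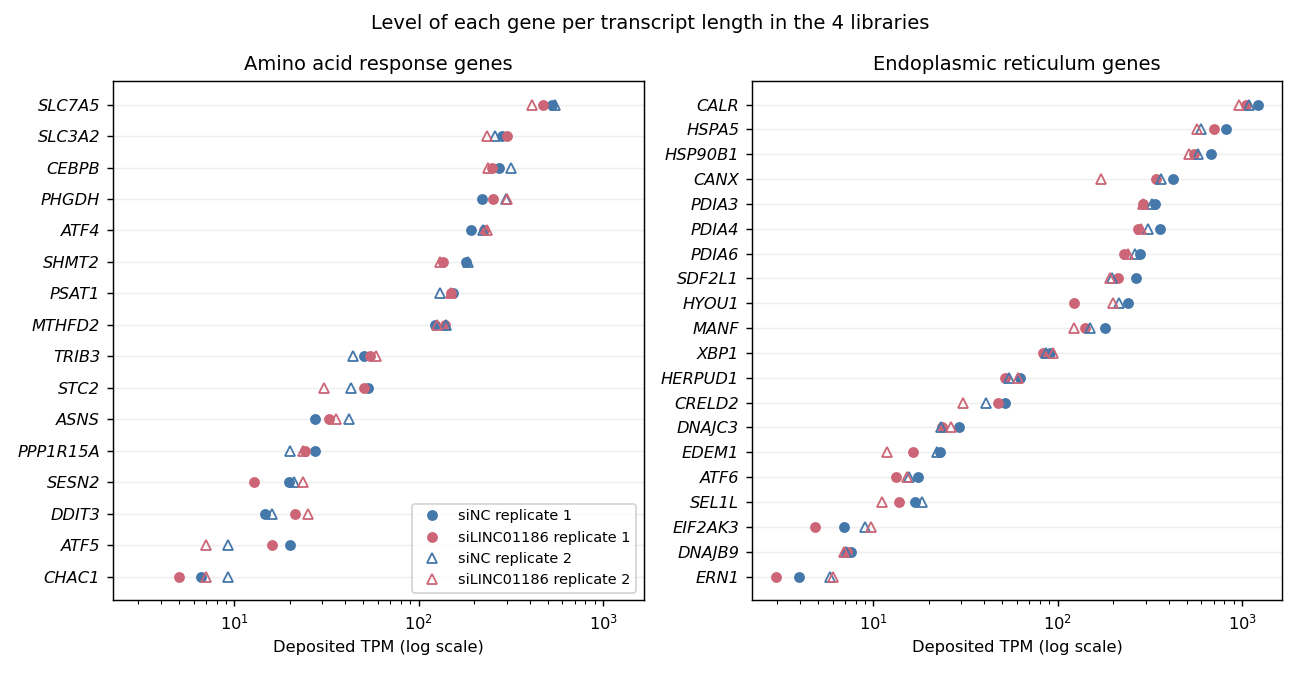
Deposited TPM (log axis) of each member in the 4 libraries, amino acid response genes on the left and ER genes on the right, ordered by the mean. Calreticulin, BiP and HSP90B1 lie highest, and the sensor ERN1 is the lowest of the tested members.

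To ask whether the stress genes differed between treatments, counts were scaled to CPM, counts scaled to 1000000 of a library size adjusted by the TMM method, and the 2 siLINC01186 libraries were set against the 2 siNC libraries in edgeR's quasi-likelihood test, which was fitted across all genes tested and gives every p and standard error (SE) named below with edgeR. No member had a Benjamini-Hochberg adjusted p under 0.05 in this test (0 of 36, with 0% of all 23942 genes), and DESeq2's Wald test also called 0 members. Neither fit held a term for the replicate number, and the closing section gives the fit with one, in which the calls differ. No member passed the limits of a log2 fold change beyond 1 with an unadjusted p under 0.05, which 0.756% of all genes passed. At an unadjusted p under 0.05 alone stood 2 amino acid response genes, DDIT3 and TRIB3, and no ER gene, against 1.21% of all genes. Both siLINC01186 libraries lay above both siNC libraries for 6 members, ATF4, DDIT3, TRIB3, PSAT1, PHGDH and XBP1, against 13.6% of all genes, and below them for 4 members, SHMT2, SEL1L, EDEM1 and HYOU1, against 12.4% of all genes. These counts are near the background and are given as a description. KRT5, a keratin of squamous epithelium from the list of other cell markers, was higher in the same libraries, with 1.67 and 2.54 CPM in siNC and 3.08 and 5.46 CPM in siLINC01186 replicates 1 and 2, a log2 fold change of 1.02 ± 0.43 SE (edgeR, unadjusted p = 0.0414 and adjusted p = 1.00). It was the 1 of 6 tested markers of that list with an unadjusted p under 0.05 between treatments, against 0 of 7 hepatocyte markers, and its part in the members' differences was not tested. The median log2 fold change was 0.16 for the amino acid response genes and -0.03 for the ER genes, beside 0.00 for all genes tested. Single members had standard errors between 0.18 and 0.47 on the log2 scale.

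Among the regulators of the amino acid response, DDIT3 showed the widest gap between treatments. DDIT3 encodes CHOP, a transcription factor induced by ATF4 that favours cell death under lasting stress, and lies at chr12:57910371-57914300 on the minus strand (hg19, the build named in the submitters' processing notes). It had 7.94 and 8.55 CPM in siNC replicates 1 and 2 and 13.7 and 14.2 CPM in siLINC01186 replicates 1 and 2. Both siLINC01186 libraries stood above both siNC libraries, and libraries of 1 treatment lay close together. The fit gave a log2 fold change of 0.76 ± 0.24 (SE, unadjusted p = 0.0121 and adjusted p = 1.00 by edgeR), so the difference did not pass this test over all genes. The rate ratio was 1.73 in replicate 1 (95% counting interval 1.38 to 2.17) and 1.67 in replicate 2 (1.35 to 2.06). Among the 11779 well counted genes, those with a mean of at least 5 CPM, 99.6% had a lower difference than DDIT3 in replicate 1 and 99.5% in replicate 2. DDIT3 overlaps MARS, a tRNA synthetase gene on the opposite strand, and the strand setting of the counting is not given in the sources used here. MARS gave 2050 and 1940 counts in siNC and siLINC01186 of replicate 1 and 2235 and 2245 in replicate 2, a log2 fold change of 0.01 ± 0.18 SE.

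TRIB3, a pseudokinase that is induced by ATF4 and CHOP and dampens ATF4 activity, had 67.1 and 57.6 CPM in siNC and 85.9 and 81.6 CPM in siLINC01186 replicates 1 and 2. The siLINC01186 libraries again lay above both controls. The fit gave a log2 fold change of 0.43 ± 0.18 (SE, unadjusted p = 0.0467 and adjusted p = 1.00 by edgeR), and it too failed this test over all genes. ATF4 had 180 and 205 CPM in siNC and 251 and 230 CPM in siLINC01186. Its difference was wider in replicate 1, where the log2 difference was 0.48, than in replicate 2, where it was 0.16, and the fit of all libraries gave a log2 fold change of 0.32 ± 0.18 SE (edgeR, unadjusted p = 0.116). The remaining regulators gave no such order. CHAC1 had 5.61 and 7.80 CPM in siNC against 5.11 and 6.30 in siLINC01186. PPP1R15A (GADD34), which restores translation by directing a phosphatase to eIF2, had 29.8 and 21.7 against 31.5 and 27.2 CPM. The log2 fold changes of CHAC1, PPP1R15A, SESN2, which restrains mTORC1, ATF5 and CEBPB lay between -0.23 and 0.18.

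**Figure D2:**
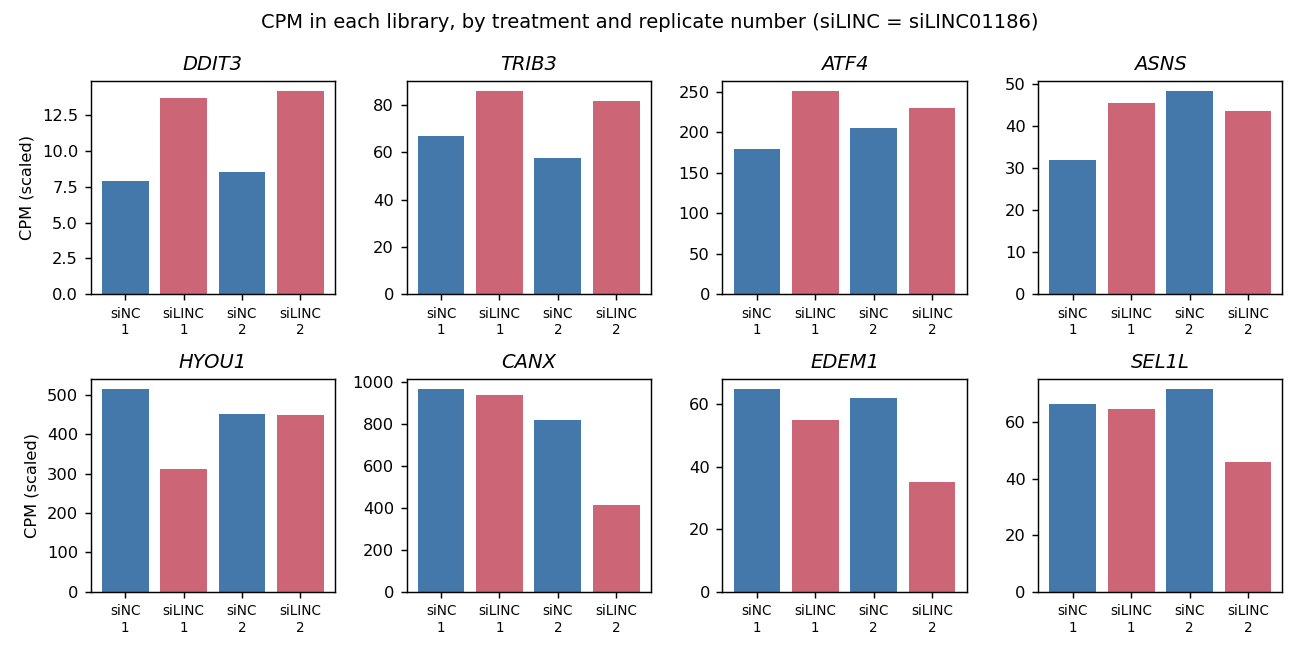
CPM, scaled by TMM and drawn from 0, of 8 members in each of the 4 libraries, with siNC in blue, siLINC01186 in red and the replicate number under each bar. DDIT3 (7.94 and 8.55 against 13.7 and 14.2 CPM) and TRIB3 were higher in both siLINC01186 libraries, while HYOU1 was low in siLINC01186 replicate 1 alone and CANX in siLINC01186 replicate 2 alone.

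Of the enzymes and transporters of the amino acid response, PHGDH, PSAT1 and SHMT2 kept their direction in both replicate numbers. The direction changed between the numbers for ASNS, MTHFD2, SLC7A5 and SLC3A2. ASNS, which makes asparagine, had 31.8 CPM in siNC replicate 1 and 45.4 in siLINC01186 replicate 1, but 48.3 and 43.6 CPM in replicate 2. The siNC libraries thus held both its lowest and its highest value. PHGDH and PSAT1, the first steps of serine synthesis, were higher in siLINC01186 in both numbers. PHGDH had 205 and 275 CPM in siNC replicates 1 and 2 and 279 and 293 CPM in siLINC01186, and PSAT1 had 159 and 134 against 185 and 162 CPM. Their libraries did not overlap between treatments, by a narrow margin of 279 against 275 CPM for PHGDH. SHMT2, which passes a carbon from serine to folate in mitochondria, went the other way, with 239 and 240 CPM in siNC and 213 and 179 CPM in siLINC01186. Its log2 fold change reached -0.29 ± 0.19 SE (edgeR, unadjusted p = 0.156). MTHFD2, the next mitochondrial folate enzyme, had 129 and 146 against 175 and 140 CPM and overlapped. The transporter chains SLC7A5 and SLC3A2 rose in neither comparison by the test and had log2 fold changes of -0.11 and 0.17. Within replicate 1 the median log2 difference of the 16 amino acid response genes was 0.20, with 12 above 0, and within replicate 2 it was -0.06, with 7 above 0, beside 0.01 and 0.00 for all genes tested.

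Setting the replicate numbers side by side, each difference rests on 1 library against 1 and has no test. No member differed by more than 1 on the log2 scale in either number, while 9.77% of all genes did so in replicate 1 and 9.61% in replicate 2, many of them with few counts. Past a difference of 0.5 stood DDIT3 (0.78) and ASNS (0.51) on the higher side and HYOU1 (-0.73) on the lower side in replicate 1. In that number 1.47% of the well counted genes were past 0.5 higher and 1.97% lower. In replicate 2, DDIT3 (0.73) and TRIB3 (0.50) stood on the higher side and CANX (-0.99), EDEM1 (-0.82) and SEL1L (-0.64) on the lower side, with 2.57% of well counted genes higher and 5.14% lower. DDIT3 was the one member past 0.5 in both numbers. Counting intervals for the 2 rate ratios lay on the same side of 1 for 6 amino acid response genes, ATF4, DDIT3, TRIB3, PSAT1 and PHGDH above and SHMT2 below, and on opposite sides for 6 others, ASNS, SESN2, SLC7A5, SLC3A2, CEBPB and STC2. Among the ER genes they lay above 1 in both numbers for XBP1, below 1 in both for HSP90B1, CANX and EDEM1, and on opposite sides for 0 genes. Among the well counted genes, 7.11% lay above 1 in both numbers, 8.13% below 1 in both and 6.27% on opposite sides. The intervals of the 2 numbers did not touch for 10 of 16 amino acid response and 8 of 20 ER genes, against 24.4% of the well counted genes. These counts are a description, since the width of an interval depends on a gene's counts.

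**Figure D3:**
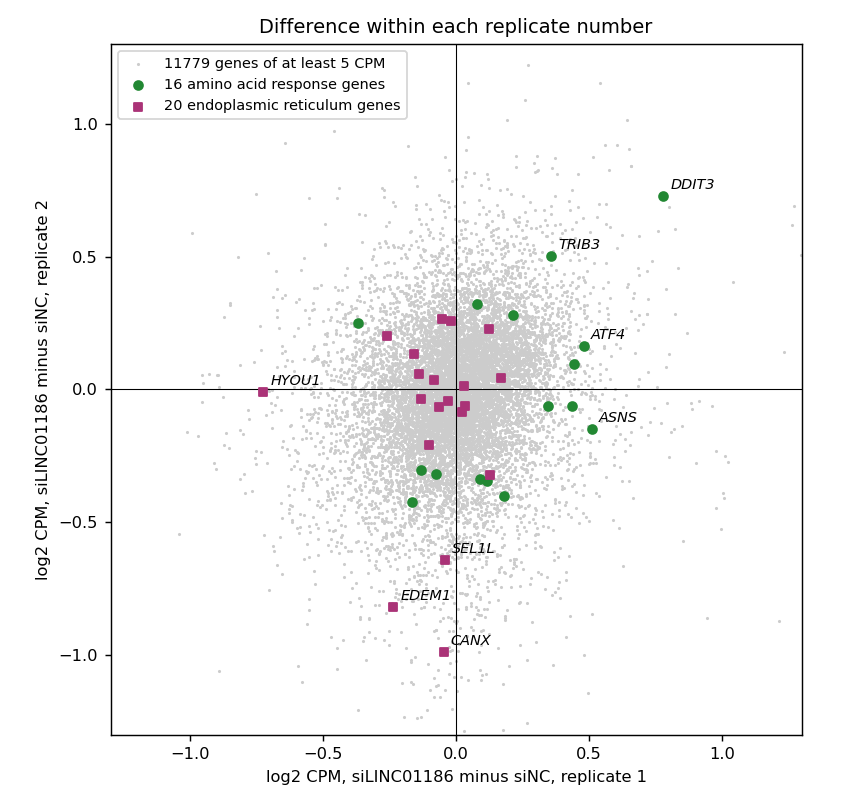
Log2 CPM difference, siLINC01186 minus siNC, in replicate 1 (x axis) and replicate 2 (y axis) for 16 amino acid response genes, 20 ER genes and 11779 genes with a mean of at least 5 CPM, of which 37 fall outside the axes. DDIT3 and TRIB3 lie to the upper right, HYOU1 (-0.73 in replicate 1) to the left, and CANX (-0.99), EDEM1 and SEL1L at the bottom.

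Most ER chaperones had close values in both treatments. HSPA5 had 1496 and 1076 CPM in siNC replicates 1 and 2 and 1527 and 1086 CPM in siLINC01186, so the treatments matched within each number and the numbers did not. Its rate ratio was 1.02 in replicate 1 (95% counting interval 1.00 to 1.04) and 1.01 in replicate 2 (0.989 to 1.03), while the fit over the 4 libraries gave a log2 fold change of 0.02 ± 0.24 SE. HSP90B1 had 898 and 746 CPM in siNC and 860 and 713 CPM in siLINC01186. Leaving out CANX and HYOU1, the 11 other chaperones and folding enzymes had log2 fold changes between -0.15 and 0.11. XBP1, the factor behind much of this program, had 76.6 and 71.2 CPM in siNC and 83.5 and 83.4 CPM in siLINC01186, above the controls in both numbers, with a log2 fold change of 0.18 ± 0.18 SE (edgeR, unadjusted p = 0.348). The sensors ATF6, ERN1 and EIF2AK3 had log2 fold changes between -0.04 and 0.03, each below the control in replicate 1 and above it in replicate 2.

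CANX, HYOU1, EDEM1 and SEL1L stood apart from the other ER genes, in different libraries. CANX, calnexin, which holds glycoproteins in the ER until they fold, lies at chr5:179125930-179158642 on the plus strand (hg19) and had 966 and 819 CPM in siNC and 935 and 413 CPM in siLINC01186 replicates 1 and 2. siLINC01186 replicate 2 was far below the other 3 libraries, which lay within 819 to 966 CPM. Its rate ratio was 0.504 in replicate 2 (95% counting interval 0.490 to 0.518) and 0.968 in replicate 1 (0.946 to 0.990), and 0.577% of well counted genes had a lower difference in replicate 2. The fit of all libraries gave a log2 fold change of -0.41 ± 0.33 SE (edgeR, unadjusted p = 0.255), and without siLINC01186 replicate 2 it was 0.06. HYOU1, an ER chaperone that helps HSPA5 exchange nucleotide, had 515 and 452 CPM in siNC and 311 and 449 CPM in siLINC01186. Here siLINC01186 replicate 1 was the low library and the other 3 lay within 449 to 515 CPM. The rate ratio was 0.605 in replicate 1 (95% counting interval 0.583 to 0.627) and 0.993 in replicate 2 (0.962 to 1.03), and the fit of all libraries gave a log2 fold change of -0.35 ± 0.22 SE (edgeR, unadjusted p = 0.152), or -0.11 without siLINC01186 replicate 1. HYOU1 lies at chr11:118914896-118927957 on the minus strand (hg19), and an unnamed antisense gene that overlaps it, ENSG00000255114.1, had 416 and 395 counts in siNC and 203 and 387 in siLINC01186, low in the same library. Reads of the 2 genes cannot be told apart without the strand setting.

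EDEM1 and SEL1L belong to ER-associated degradation, in which EDEM1 picks misfolded glycoproteins and SEL1L serves the ubiquitin ligase that receives them. EDEM1 had 64.9 and 61.9 CPM in siNC and 55.0 and 35.1 CPM in siLINC01186 replicates 1 and 2. Both siLINC01186 libraries lay below both controls, replicate 2 by more. The log2 fold change reached -0.50 ± 0.24 SE (edgeR, unadjusted p = 0.0648), the smallest p among the ER genes, and without siLINC01186 replicate 2 it was -0.21. SEL1L had 66.6 and 71.8 CPM in siNC and 64.7 and 45.9 CPM in siLINC01186. It was lowest in siLINC01186 replicate 2, and its other 3 libraries differed by at most the gap from 64.7 to 71.8 CPM. Over all 4 libraries its fitted log2 fold change was -0.32 ± 0.21 SE (edgeR, unadjusted p = 0.163), and it was -0.10 without siLINC01186 replicate 2. HERPUD1, another degradation component, had 55.5 and 47.5 against 54.8 and 56.8 CPM and did not share this pattern.

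Since an siRNA can lower other transcripts that match bases 2 to 8 of either strand, its seed, the sites of the study's oligos in the members are shown. The oligos are printed 5′ to 3′ with the seed in capitals, as the study lists them and as the reverse complement.
siSALIS_01: aGGGCTCTattgggcaaaaa
siSALIS_01, other strand: tTTTTGCCcaatagagccct
siSALIS_02: cTAAGTGActcactgcatc
siSALIS_02, other strand: gATGCAGTgagtcacttag
In 3′UTRs, taking the longest that GENCODE 29 (GRCh38) lists per gene, TCACTTA, the site of siSALIS_02 as listed, stood in 6 of 37 members, SHMT2, PDIA3, CANX, ATF6, ERN1 and SEL1L, and in 12.1% of the 14792 tested genes with such a region. The site of its other strand, ACTGCAT, stood in MTHFD2, STC2, DNAJB9, PDIA3, ATF6 and SEL1L and in 13.5% of those genes. AGAGCCC, for siSALIS_01 as listed, stood in PPP1R15A, PDIA3 and PDIA4 and in 13.1% of genes, and GGCAAAA, for its other strand, in ATF5, CEBPB, ERN1 and HERPUD1 and in 14.0%. Of the 3 ER genes past -0.5 in replicate 2, CANX and SEL1L held TCACTTA and EDEM1 held none of the 4 sites, as did HYOU1. The other holders of TCACTTA had log2 differences in replicate 2 of -0.42 (SHMT2), -0.06 (PDIA3), 0.06 (ATF6) and 0.13 (ERN1). The site in CANX lies at chr5:179730289-179730318 (plus strand), and those in SEL1L at chr14:81474674-81474703 and chr14:81471823-81471852 (minus strand), all GRCh38, with the site in capitals.
CANX: ttaaagtttgtTCACTTAaattcttttgag
SEL1L, first site: ttcttatggctTCACTTAaagactgtctca
SEL1L, second site: tccttctcatgTCACTTAcgtcactacttc
The part of these sites in the levels was not tested, and the labels do not place an oligo in a library.

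The replicate numbers separated more members than the treatments did. Each number held an siNC and an siLINC01186 library. By the study's account the oligos differed between the siLINC01186 libraries, so number and oligo cannot be told apart there. Between the 2 replicate 1 and the 2 replicate 2 libraries, 4 members were higher in replicate 1, ATF5, STC2, HSPA5 and CRELD2, and 2 were lower, ERN1 and EIF2AK3 (edgeR, adjusted p under 0.05 after Benjamini-Hochberg correction across all genes). Over all genes, 4.57% were called higher and 4.44% lower. ATF5 alone passed the fold limit of 1 with an unadjusted p under 0.05, as did 5.47% of all genes. Libraries did not overlap between numbers for 16 members higher in replicate 1, against 25.6% of all genes, and for 4 members lower, against 27.0%. Of the 16, ER genes made up 12, all of them chaperones or folding enzymes. The median log2 fold change, replicate 1 over replicate 2, was 0.24 for the 13 chaperones and folding enzymes, 0.10 for the amino acid response genes and -0.02 for all genes tested. It was also 0.24 for 14 genes that control eIF2, of which 10 were higher and 2 lower in replicate 1 without overlap. The shift was thus not particular to the chaperones. Among the well counted genes the median log2 difference between numbers was 0.04 within siNC and 0.07 within siLINC01186.

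ATF5, a transcription factor whose mRNA is itself held back and released at translation like that of ATF4, had 24.2 and 23.0 CPM in siNC and siLINC01186 of replicate 1 and 11.0 and 8.78 CPM in those of replicate 2. Both replicate 1 libraries stood far above both of replicate 2, and the treatments lay close together. The log2 fold change reached 1.26 ± 0.17 SE (edgeR, adjusted p = 0.000574), and the log2 difference was 1.13 within siNC and 1.37 within siLINC01186. The opposite strand at ATF5 (chr19:50431959-50437193, hg19) carries NUP62, a nuclear pore gene, with 2669 and 2340 counts in replicate 1 and 1950 and 2216 in replicate 2. It also carries IL4I1, with 32 and 29 counts against 23 and 23, siNC first. These counts are not scaled for depth, and siLINC01186 replicate 1 had 14968958 total counts against 16785571 in siLINC01186 replicate 2. Without the strand setting, reads where these genes overlap ATF5 cannot be told apart. STC2, a secreted glycoprotein induced by ER stress, had 131 and 148 CPM in replicate 1 and 104 and 78.7 CPM in replicate 2, siNC first. Its log2 fold change reached 0.61 ± 0.14 SE (edgeR, adjusted p = 0.0131), and the gap between numbers was wider in the siLINC01186 libraries, 0.91 against 0.33.

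HSPA5 was higher in replicate 1 by a log2 fold change of 0.48 ± 0.10 SE (edgeR, adjusted p = 0.00791), with nearly the same log2 difference within siNC (0.48) and within siLINC01186 (0.49). CRELD2, a secreted ER protein that acts with disulfide isomerases, had 41.3 and 45.1 CPM in replicate 1 and 32.1 and 25.7 CPM in replicate 2, siNC first. No replicate 2 library reached the replicate 1 values, and the log2 fold change reached 0.58 ± 0.15 SE (edgeR, adjusted p = 0.0246). The sensors IRE1 and PERK went the other way. ERN1 had 7.28 and 6.51 CPM in replicate 1 and 10.7 and 11.7 CPM in replicate 2, and EIF2AK3 had 15.3 and 12.8 against 19.8 and 22.8 CPM, siNC first. Both were higher in both replicate 2 libraries, with log2 fold changes of -0.69 (SE 0.19, adjusted p = 0.0315) and -0.60 (SE 0.17, adjusted p = 0.0345) by edgeR. These calls rested in part on single libraries. Without siLINC01186 replicate 1 the adjusted p from edgeR was 0.0635 for STC2, 0.134 for CRELD2, 0.198 for ERN1 and 0.266 for EIF2AK3. Without siLINC01186 replicate 2 it was 0.057 for CRELD2, 0.058 for ERN1 and 0.068 for EIF2AK3, and without siNC replicate 1 it was 0.0784 for ERN1. DESeq2's Wald test called neither ERN1 (adjusted p = 0.0932) nor EIF2AK3 (0.0692). ATF5 and HSPA5 were called by edgeR whichever library was left out. ATF6, the third sensor, had a log2 fold change of 0.09 ± 0.13 SE.

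CANX (adjusted p = 0.0676), SDF2L1, an ER chaperone cofactor (adjusted p = 0.0604), and SLC3A2 (adjusted p = 0.0824) had the next smallest adjusted p by edgeR. SDF2L1 had 107 and 101 CPM in replicate 1 and 79.0 and 81.0 CPM in replicate 2, siNC first. SLC3A2 had 379 and 481 CPM against 341 and 327 CPM. Past a log2 difference of 1 between numbers stood ATF5 within siNC, as did 14.0% of all genes, and ATF5 and CANX (1.18) within siLINC01186, as did 14.5%. The marker counts given above moved along the same line, with more hepatocyte and COL1A1 counts in replicate 2, while KRT5 overlapped between numbers. edgeR called 5 of the 7 tested hepatocyte markers and COL1A1 lower in replicate 1. Those 5 markers, ALB, APOA1, APOB, TF and SERPINA1, had 0 or 1 count in each replicate 1 library. They reached the 5 counts needed for testing only through replicate 2, so the filter favoured a call in that direction. DESeq2's Wald test also called COL1A1 but gave an adjusted p for 0 of the 7 hepatocyte markers, of which 5 had an unadjusted p under 0.05. Their part in the members' differences was not tested.

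**Figure D4:**
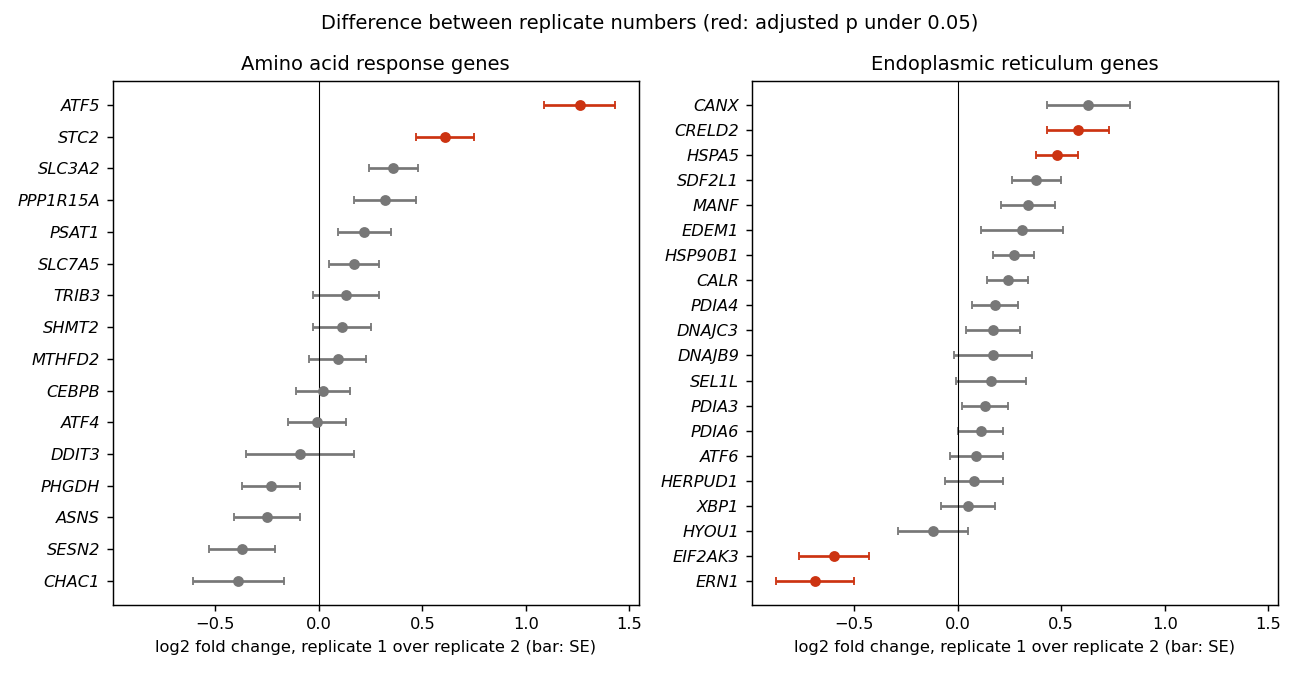
Log2 fold change of each tested member, replicate 1 over replicate 2, with its standard error as a bar, from edgeR's quasi-likelihood fit of all 4 libraries (red, adjusted p under 0.05). ATF5 (1.26) lies farthest to the right, nearly all chaperones lie right of 0, and ERN1 (-0.69) and EIF2AK3 (-0.60) lie to the left.

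The wider pathways were read from lists of further genes. Of 36 further amino acid response genes, 0 were called between treatments in edgeR's test and 1 had an unadjusted p under 0.05, and the median log2 fold change was 0.09. That gene was NUPR1, a stress-induced nuclear protein, with 31.0 and 44.4 CPM in siNC and 50.0 and 59.9 CPM in siLINC01186, a log2 fold change of 0.54 ± 0.23 SE (edgeR, unadjusted p = 0.0390). Both siLINC01186 libraries lay above both controls. Between replicate numbers 2 of the 36 were called higher in replicate 1, the transporters SLC7A11 (log2 fold change 0.67) and SLC1A5 (0.60), and 3 lower, KLHL24, CTH and PCK2. The shares called over all genes were 4.57% higher and 4.44% lower. Of 35 further ER genes, 0 were called between treatments and 1 had an unadjusted p under 0.05, with a median log2 fold change of 0.05. This was SSR1, a subunit of the translocon-associated complex at the ER membrane, with 214 and 186 CPM in siNC and 146 and 120 CPM in siLINC01186, a log2 fold change of -0.59 ± 0.20 SE (edgeR, unadjusted p = 0.0146). It was lower in both siLINC01186 libraries. Between numbers DNAJB11, a cofactor of HSPA5, was called higher in replicate 1 (log2 fold change 0.48) and no further ER gene was called, beside the same shares of all genes. None of the 14 genes that control eIF2, its kinases, subunits, exchange factor and phosphatase, was called in either comparison in edgeR's test. At an unadjusted p under 0.05, 0 of them stood between treatments and 5 between numbers, all higher in replicate 1, with 23.4% of all genes under that p in either direction. DESeq2's Wald test also called 0 genes of these 3 lists between treatments, and between numbers the same 5 amino acid response genes, DNAJB11 and 0 of the eIF2 genes.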

How the data were processed

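RNA from 2 siNC and 2 siLINC01186 libraries was sequenced, and reads were aligned and counted by the authors. The submitters' processing notes name hg19, HISAT2, TopHat2, Bowtie2 and HISAT without a role, and the counting program is not given in the sources used here. Deposited by the authors were raw read counts for each gene and TPM values, which equal the counts per gene length scaled to 1000000. Members and gene lists were chosen with earlier results of these data known. Genes reaching a total of 5 counts over the 4 libraries were scaled by TMM and compared in edgeR 4.0.16 (R 4.3.3) by its quasi-likelihood test without a block, once by treatment and once by replicate number, with Benjamini-Hochberg adjustment over all 23942 genes. Log2 CPM used a prior count of 2. Rate ratios have exact conditional 95% intervals. DESeq2 1.42.0 and the other alternatives are given in the closing section. The tests were run on simulated counts in which only 200 genes differed, by a log2 fold change of 2, between the groups compared. They recovered 98.0% of these between treatments and 98.5% between numbers, with 6 false calls each. No other difference between replicate numbers was simulated, so smaller changes and the real spread between numbers were not checked. Values in every library are given for members that passed a threshold or a fold limit and for those with the smallest p in each group and comparison, with further members for the roles described. Symbols of 4 list genes were matched through RefSeq synonyms. Sequences were read from RefSeq (GRCh38.p14), GENCODE 29 and the study's oligo list with Python 3.11.15.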

Additional observations from a re-analysis of the deposited data

How the results depend on the processing

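The labels pair the libraries by number only. For libraries of 1 number, the deviations from the treatment means correlated at 0.563 across genes, which are not independent replicates. With the replicate number as a block, 5 of 36 members were called between treatments, DDIT3 and TRIB3 higher and CANX, EDEM1 and HYOU1 lower, against 0 without it, as were NUPR1 (adjusted p = 0.00501) and KRT5 (0.04), higher, and SSR1 (3.87e-05), lower, and 1.16% of all genes by edgeR. Of these calls, those of CANX and HYOU1 each rested on 1 low library. Their log2 differences in replicates 1 and 2 were -0.05 and -0.99 (CANX) and -0.73 and -0.01 (HYOU1). The standard error of CANX in the blocked fit was 0.09, smaller than the gap between its 2 numbers. With treatment as a term 14 members and 17.5% of all genes were called between numbers, against 6 and 9.01% without it. Leaving out 1 library in turn called 0 members between treatments in each case, with 0 to 2 past the limits (ATF5 and CANX without siLINC01186 replicate 1), and 3 to 12 called and 1 to 2 past the limits between numbers (3 without siLINC01186 replicate 1, 12 without siNC replicate 2). The median log2 fold change of the ER genes then ran from -0.16 to 0.06 between treatments and from 0.14 to 0.19 between numbers, and that of the amino acid response genes from 0.05 to 0.31 and from -0.05 to 0.24. The fold of CANX between treatments ran from -1.11 to 0.06. edgeR's expression filter moved the median of the ER genes between numbers to 0.16. A fold limit of 0.5 gave 3 and 5 members between treatments in replicates 1 and 2, and 3 and 10 between numbers within siNC and siLINC01186. At the fold limit of 1, deposited TPM gave 1 member between treatments in replicate 2 and 1 between numbers within siLINC01186. ERN1 and EIF2AK3 lost their call with DESeq2's Wald test (adjusted p = 0.0932 and 0.0692). With 1 library left out, the lone library of its group is assumed to vary like the others. Among these fits, the share of all genes called between numbers was also lowest without siLINC01186 replicate 1 and highest without siNC replicate 2. The range of members called between numbers is therefore not read as particular to the members. Precision is limited by 2 libraries a group, with standard errors of 0.18 to 0.47 between treatments in the fit without the block. The blocked fit gave smaller ones, such as 0.08 against 0.24 for HSPA5 and 0.16 against 0.47 for ATF5. The background over genes of at least 5 CPM was chosen after seeing the data.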
